A study of Mus musculus with 12 samples.

Results

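The comparison described here set the cortex of rTg4510 mice whose tau transgene had been suppressed (Tg + Dox, 3 arrays) against the cortex of untreated non-transgenic mice (Non + Veh, 3 arrays), 6 of the 12 arrays of the series. It asked how far the treated transgenic cortex still stood from untreated normal cortex. Both genotype and feed differed between these groups, so their parts cannot be told apart in this contrast alone. Tg + Dox mice carried Tg(Camk2a-tTA)1Mmay and Tg(tetO-MAPT*P301L)4510Kha/J and ate feed with 200 ppm doxycycline for 35 days, whereas Non + Veh mice were labelled wild-type FVB/NJ and ate normal feed. Feeding began at 3.5 months of age, and each group held 1 male and 2 females. Non + Dox (2 arrays, both male, wild-type FVB/NJ, 200 ppm doxycycline for 35 days) and Tg + Veh (3 arrays, both transgenes, normal feed) entered the same model. The array Tg + Veh 4 failed the authors' quality control and was left out.

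In rTg4510 mice the Camk2a promoter drives the tetracycline transactivator in forebrain excitatory neurons, and the transactivator switches on a human P301L tau transgene. Doxycycline holds the transactivator off that transgene, so new transgenic tau is made at a lower rate, although the labels describe Tg + Dox cortex as still above the endogenous mouse tau level. Tau normally binds microtubules. In tauopathy, neurons accumulate aggregated tau while astrocytes and microglia become reactive, switching on genes of intermediate filaments, complement and lysosomes.

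Of 72688 rows of log2 RMA signal, 30638 carried a single gene symbol, and 12745 of these (12564 symbols) exceeded 6.76 on at least 1 of the 11 arrays and were tested. RMA is a robust multi-array summary of probe brightness, and 1 log2 unit is a factor of 2. Called means an adjusted p below 0.05 in limma. The minimum could be passed on any array, so genes high only in Tg + Veh also entered, and genes high only in Tg + Dox could. The 6 arrays were alike in scale, with medians of 5.54 to 5.59 over all rows and correlations between arrays of 0.994 to 0.997.

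A few arrays stood apart. Esyt2, Wdr60 and Ptprn2 lie at a locus known to have been damaged by the tTA insertion in this line. Esyt2 read 10.86 and 10.90 on Non + Veh 1 and 2 but 9.60 on the library labelled Non + Veh 3, beside 9.74, 9.72 and 9.55 in Tg + Dox. The library labelled Non + Dox 2 read 9.61 against 11.23 on Non + Dox 1. Both libraries were thus at the level of transgenic cortex for Esyt2, against their wild-type label, while Fgf14 on them was at the non-transgenic level. The calls, and the list counts and parts of a change that move most, are given below with and without both.

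Pituitary hormone genes also varied among the controls. Prolactin (Prl) read 17.07, 8.13 and 6.89 in Non + Veh and 4.81, 4.94 and 6.19 in Tg + Dox. Growth hormone (Gh) read 9.95, 8.70 and 5.53 against 5.07, 4.91 and 5.43. Their mean changes, -5.38 for Prl and -2.93 for Gh, were therefore set by 1 or 2 control arrays, and neither was called (adjusted p = 0.527 for each). Without Non + Veh 1 the Prl change was -2.20. Of 10 anterior pituitary markers, listed after these signals had been seen, 9 had a row and 3 were tested. The third, Pomc, read 6.88, 5.47 and 5.21 in Non + Veh and 4.89 to 5.13 in Tg + Dox, whereas Pou1f1 had no single-symbol row and Ghrhr stayed at 4.95 to 4.96. The choroid plexus marker Ttr likewise ranged from 10.87 to 14.64 in Non + Veh and from 8.12 to 11.63 in Tg + Dox (-2.77, adjusted p = 0.660). All 4 tested choroid plexus genes of 11 had lower means in Tg + Dox, with a list median of -0.66 that was -0.32 without Non + Veh 3. Tmem181a read 15.63 on Non + Veh 2 and 11.15 to 11.45 on the other 5 arrays compared. None of the 7 blood genes was tested, 5 of them lying below the minimum. All 5 tested meningeal fibroblast genes of 11 had higher means in Tg + Dox (median 0.22), beside a feed difference of 0.47, and 11 of 15 endothelial and mural genes had lower means (median -0.08). Cortical neuron markers were present throughout, with Snap25 at 18.13 to 18.70 on the 6 arrays. The part of these differences in the results below was not tested.

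Between treated transgenic and untreated normal cortex, limma called a single row, Fgf14, with 0 of 12745 rows (0%) called higher and 1 (0.00785%) called lower. At an unadjusted p below 0.05, 657 rows (5.15%) had higher means and 519 (4.07%) lower means in Tg + Dox. With each array centred on its median the balance turned, to 533 higher and 668 lower. The 3 Tg + Dox arrays all lay above the 3 Non + Veh arrays for 919 rows (7.21%) and all below them for 685 (5.37%). In the same fit, Tg + Veh against Non + Veh gave 232 higher calls (1.82%) and 17 lower calls (0.133%). Those counts share the Non + Veh arrays with the comparison described here, and the difference between the counts was not tested.

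The median change over rows was 0.01, and 54.3% of rows had a higher mean in Tg + Dox, or 49.1% with arrays centred. The 95% intervals reached a median of 0.177 either side of the change, and 83.8% of rows had an interval lying wholly within 0.5 log2 units of no change. For 98.5% the interval lay within 1 log2 unit, which left 192 rows where a difference of a factor of 2 was not excluded by the interval. Only 18 rows had a mean change beyond 1 log2 unit, 5 higher and 13 lower, among them Prl, Gh, Ttr and Tmem181a. Spread within Tg + Dox was larger than within Non + Veh for 60.01% of rows, with median SDs of 0.0923 and 0.0714.

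**Figure D1:**
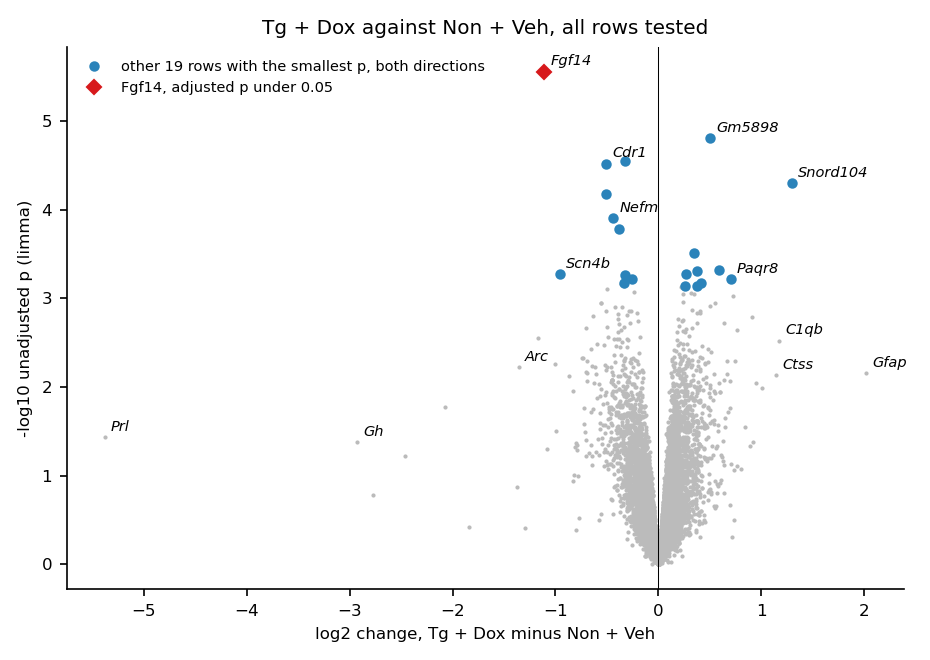
Log2 change of Tg + Dox minus Non + Veh (x) against -log10 of the unadjusted limma p (y) for the 12745 rows tested, 1 grey point each, with the 10 rows of smallest p in each direction coloured. Fgf14 is the single row called, Prl and Gh have the most negative changes with modest p, and Gfap has the most positive change.

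Fgf14 encodes an intracellular fibroblast growth factor homologous factor that binds voltage-gated sodium channels. The gene is known as the site where the tau transgene of this line inserted, and the RefSeq gene table lists that transgene among its synonyms. The signal was 12.29, 12.17 and 12.01 in Non + Veh and 10.85, 11.09 and 11.19 in Tg + Dox. The groups were far apart relative to their SDs of 0.140 and 0.179, and Fgf14 fell by 1.11 (SE 0.107, 95% interval -1.35 to -0.87, adjusted p = 0.0353), to a ratio of 0.463. Non + Dox arrays read 12.09 and 12.05 and Tg + Veh arrays 11.13, 11.26 and 10.98, so both transgenic groups sat together below both non-transgenic groups. The change was -1.03 against Non + Dox and -0.08 for feed alone. The call was lost in 9 of the 11 fits that left out 1 array, being kept without Non + Veh 3 or Tg + Veh 3, while the change stayed between -1.19 and -1.01. Endogenous Mapt, the mouse tau gene, read 9.79, 9.83 and 9.83 in Non + Veh and 9.77, 9.85 and 9.96 in Tg + Dox (0.05, adjusted p = 0.846).

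Without the libraries labelled Non + Veh 3 and Non + Dox 2, a setting added after the data had been seen, 2 rows were called higher and 7 lower. The libraries had been chosen for their low signals at the tTA locus, so the lower values of Esyt2 (-1.21), Ptprn2 (-1.44) and Wdr60 (-0.97) in this setting follow from that choice. Fgf14 (-1.18) was called too. The others were Scn4b (-1.08), Lamp5 (-1.44), Lrrtm4 (-0.66), Gm5898 (0.57) and Plce1 (0.46), with adjusted p of 0.0132 to 0.0427. Lamp5, a neuronal membrane protein gene, read 13.33, 13.29 and 12.51 in Non + Veh and 11.56, 12.03 and 12.02 in Tg + Dox. Lrrtm4, which encodes a synaptic adhesion protein, read 10.63, 10.66 and 9.77 against 9.98, 10.06 and 9.92. For both genes the library labelled Non + Veh 3 was the lowest control, and for Lrrtm4 it lay below every Tg + Dox array. Counts of members lower at an unadjusted p below 0.05 went from 2 to 6 of 26 synapse genes and from 1 to 3 of 12 excitatory layer markers, beside 575 of all 12745 rows in this setting. Counts of members higher at that p went from 4 to 2 of 19 disease-associated microglia genes and from 2 to 1 of 5 reactive astrocyte genes. For tau and microtubule-associated genes they went from 3 to 0 of 18. Of all 12745 rows, 651 were higher at that p in this setting.

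Immediate-early genes, which neurons transcribe within minutes of activity, had lower means in Tg + Dox for 15 of 17 members tested (20 listed, 2 below the minimum, 1 without a single-symbol row). None was called. At an unadjusted p below 0.05, 8 of 17 were lower and 0 higher, beside 4.07% and 5.15% of all rows, and 7 of 17 had non-overlapping groups, beside 5.37%. The list median was -0.36, against 0.01 over all rows, and -0.59 for Tg + Veh minus Non + Veh. Each array's median over the members, relative to the Non + Veh mean, was -0.09, 0.23 and -0.18 in Non + Veh and -0.26, -0.24 and -0.50 in Tg + Dox. Without Non + Veh 2, the highest control, 4 members were lower at that p, beside 378 of all 12745 rows. Without Tg + Dox 3 there were 5, beside 421 of all rows, with a list median of -0.24. That array was the lowest of Tg + Dox for 14 of the 17. With both doubted Non libraries left out the count stayed at 8.

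Sequence upstream of these genes is shown because activity reaches them through 2 known promoter elements, the cAMP response element, bound by CREB, and the CArG box, bound by serum response factor. Of the 17 members tested, 14 had an entry in the RefSeq promoter table (GRCm38.p6), giving 20 windows of 250 bases before to 50 bases after a transcription start. The windows below belong to members with an unadjusted p below 0.05, with the core TGACG of the cAMP response element on either strand and CArG boxes (CC, then 6 bases of A or T, then GG) in capitals. They span chr15:101266596-101266895 (plus strand), chr19:4989922-4990221 (minus strand), chr13:93303507-93303806 (plus strand) and chr10:67537619-67537918 (plus strand), the last 2 being the windows with most TGACG cores among 2 and 5 for their genes.
Nr4a1: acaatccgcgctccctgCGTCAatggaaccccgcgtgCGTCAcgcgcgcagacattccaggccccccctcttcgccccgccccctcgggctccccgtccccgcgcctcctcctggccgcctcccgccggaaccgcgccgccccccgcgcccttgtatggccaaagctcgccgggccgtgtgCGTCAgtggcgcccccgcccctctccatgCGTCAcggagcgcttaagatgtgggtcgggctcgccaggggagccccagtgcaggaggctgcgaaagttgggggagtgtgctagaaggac
Npas4: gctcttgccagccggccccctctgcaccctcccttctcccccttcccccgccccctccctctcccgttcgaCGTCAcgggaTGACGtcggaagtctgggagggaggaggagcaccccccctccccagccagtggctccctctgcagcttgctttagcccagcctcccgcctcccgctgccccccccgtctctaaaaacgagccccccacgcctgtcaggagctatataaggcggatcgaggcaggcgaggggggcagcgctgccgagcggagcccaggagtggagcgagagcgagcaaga
Homer1: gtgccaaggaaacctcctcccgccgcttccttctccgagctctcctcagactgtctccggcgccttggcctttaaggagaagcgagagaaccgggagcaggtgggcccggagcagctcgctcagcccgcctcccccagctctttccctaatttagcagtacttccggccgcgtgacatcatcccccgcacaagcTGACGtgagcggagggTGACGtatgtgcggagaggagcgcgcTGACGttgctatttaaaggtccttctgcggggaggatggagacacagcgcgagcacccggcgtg
Egr2: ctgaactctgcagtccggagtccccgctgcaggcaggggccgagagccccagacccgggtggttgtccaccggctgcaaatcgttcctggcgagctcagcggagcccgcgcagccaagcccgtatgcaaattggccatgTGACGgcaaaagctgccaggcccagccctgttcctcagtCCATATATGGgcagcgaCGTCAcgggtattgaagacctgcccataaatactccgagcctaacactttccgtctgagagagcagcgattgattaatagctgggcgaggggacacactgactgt
The core occurred in 15 of the 20 windows (75.0%) and in 20.8% of all 32851 windows, and 12 of the 14 genes had at least 1. CArG boxes occurred in 4 of 20 windows, all of Egr2, beside 1.63% of all windows. The E-box CANNTG was in 14 of 20 windows (70.0%) beside 72.3% of all windows, and the AP-1 motif TGANTCA in 0 of 20 beside 7.81%. Dusp6, also below 0.05, had neither a TGACG core nor a CArG box in its 1 window. Arc and Egr3, below 0.05 too, had no entry and were not searched, and no window of Egr1 is printed. The windows of Egr2 overlap or lie close together, and a match is a description of letters only.

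Among the 4 genes whose windows are printed, Nr4a1, a nuclear receptor with 4 TGACG cores, read 12.95, 13.64 and 12.68 in Non + Veh and 12.46, 12.60 and 11.84 in Tg + Dox (-0.79, adjusted p = 0.527). Npas4, an activity-dependent transcription factor with 2 TGACG cores, read 7.71, 7.82 and 7.34 against 7.30, 7.32 and 7.16 (-0.36, adjusted p = 0.510). Homer1, a postsynaptic scaffold with a short activity-induced form, had 3 TGACG cores and read 12.97, 13.15 and 12.69 against 12.69, 12.62 and 12.32 (-0.40). Its groups met at 12.69, while those of Nr4a1 and Npas4 did not overlap but nearly met, at 12.68 and 12.60 for Nr4a1 and at 7.34 and 7.32 for Npas4.

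Arc, which encodes a capsid-like protein of synaptic plasticity, had the largest mean difference of the list. It read 12.50, 13.20 and 12.07 in Non + Veh and 11.53, 11.67 and 10.51 in Tg + Dox (-1.36, SE 0.379, adjusted p = 0.465). The groups did not overlap, and SDs were 0.567 and 0.634. Non + Dox arrays read 11.79 and 12.63, overlapping Non + Veh, and Tg + Veh arrays 11.16, 10.86 and 10.68.

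Of the Egr transcription factors, Egr1, Egr2 and Egr3 were also lower on every Tg + Dox array than on any Non + Veh array, with smaller steps than Arc. Egr4 differed by only -0.04. Egr1 read 10.23, 10.45 and 10.15 in Non + Veh and 9.80, 9.99 and 9.58 in Tg + Dox (-0.49, adjusted p = 0.465), above all Tg + Veh arrays, which read at most 9.24. Egr2, with 2 TGACG cores and a CArG box in the printed window, read 8.31, 8.22 and 7.66 against 7.54, 7.65 and 7.14 (-0.62). Egr3 read 10.41, 10.87 and 10.24 against 9.52, 10.23 and 9.28 (-0.83). For Egr2 and Egr3 the nearest arrays of the 2 groups were almost level, at 7.66 and 7.65 and at 10.24 and 10.23. Fos, the AP-1 subunit, overlapped between groups (-0.42, unadjusted p = 0.0579), and Nr4a2 had a higher mean in Tg + Dox (0.24, adjusted p = 0.757). Dusp6, a phosphatase of ERK kinases, differed by -0.41 with a feed difference of -0.42 and a genotype difference on doxycycline of 0.01.

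Over the list, the genotype difference on doxycycline (Tg + Dox minus Non + Dox) had a median of -0.35 and the feed difference (Non + Dox minus Non + Veh) one of -0.04. Over all rows those medians were 0.00 and 0.01. Without the libraries labelled Non + Veh 3 and Non + Dox 2 the list medians were -0.29 for genotype on doxycycline and -0.18 for feed. Bhlhe40, a clock-linked repressor that is not in the list, read 10.51, 10.70 and 10.06 in Non + Veh and 9.54, 9.97 and 9.54 in Tg + Dox (-0.74, adjusted p = 0.465).

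**Figure D2:**
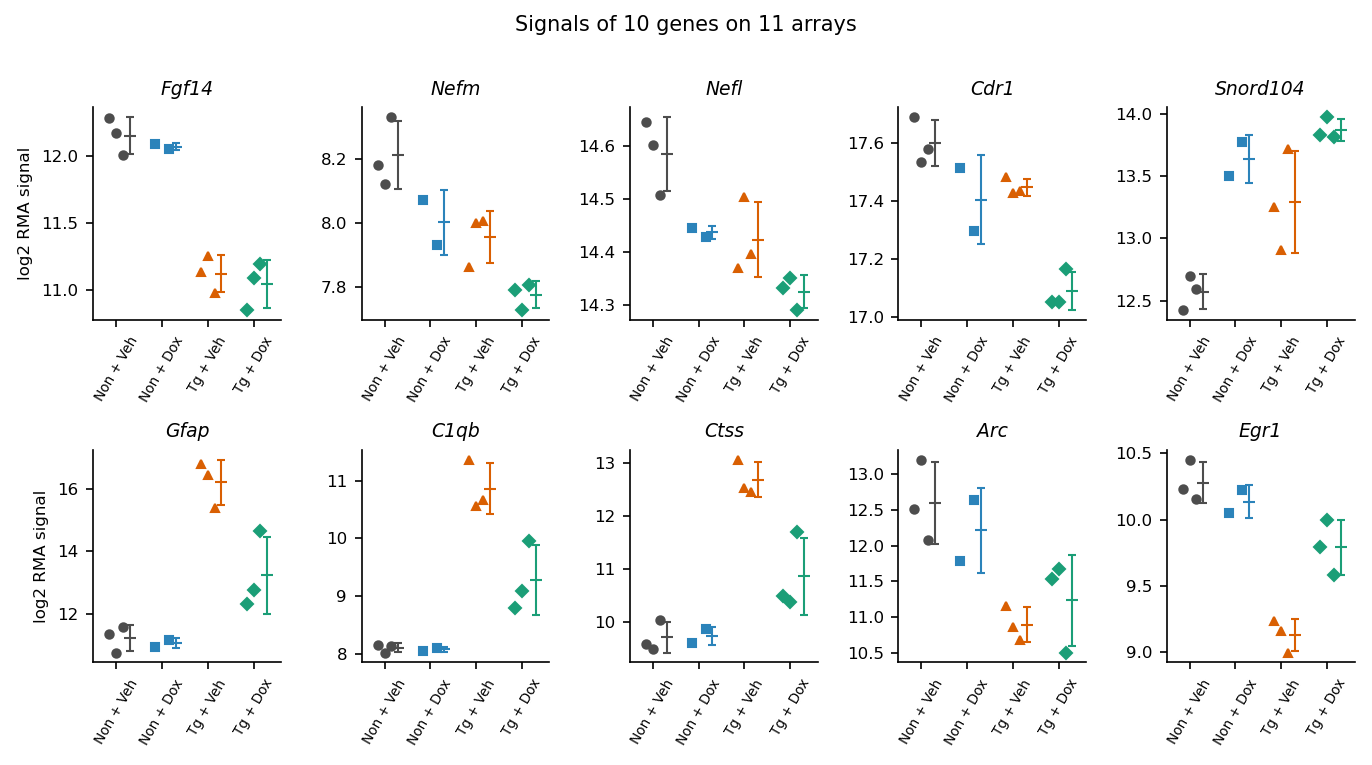
Log2 RMA signal of 10 genes on 11 arrays, 1 point per array by group, with mean and SD beside the points. Fgf14 separates by genotype, the neurofilament genes Nefm and Nefl are lowest in Tg + Dox, Gfap, C1qb and Ctss lie between Non + Veh and Tg + Veh, and Arc and Egr1 lie below Non + Veh.

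Most complement, microglial, lysosomal and astrocyte genes had higher means in Tg + Dox than in Non + Veh, without a single call. All 9 tested complement genes (12 listed) had higher means, with a median of 0.38, 4 at an unadjusted p below 0.05 and 5 with non-overlapping groups, beside 5.15% and 7.21% of all rows. Of 19 tested disease-associated microglia genes (25 listed), 17 had higher means (median 0.24), 4 at that p and 7 non-overlapping. Lysosomal genes were higher on average for 21 of 23 tested (28 listed, median 0.18, 3 at that p). All 5 tested reactive astrocyte genes (15 listed, 10 below the minimum) had higher means, with a median of 0.34, 2 at that p and 4 non-overlapping. For Tg + Veh minus Non + Veh the same medians were 1.48, 1.22, 0.71 and 1.54, against 0.02 over all rows. The lists are not independent, since Ctsb is in both the microglia and the lysosome list. C4b and Lyz2 lay below the signal minimum on every Non + Veh array and above it on at least 1 Tg + Dox array. Members could thus be tested by being high in Tg + Dox, so the counts of higher means rest partly on the filter. In bulk cortex, more cells of a type and more RNA per cell cannot be told apart.

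Gfap, the intermediate filament of astrocytes, read 11.36, 10.74 and 11.55 in Non + Veh and 12.31, 12.76 and 14.64 in Tg + Dox. Every Tg + Dox array exceeded every Non + Veh array, but they spanned more than 2 log2 units, and the mean difference of 2.02 (SE 0.579, 95% interval 0.71 to 3.33) was not called (adjusted p = 0.465). Non + Dox arrays read 10.94 and 11.16 and Tg + Veh arrays 15.41 to 16.80. Without Tg + Dox 3 the difference was 1.32. Cd44, a hyaluronan receptor of reactive astrocytes, read 6.08, 6.17 and 6.14 against 6.35, 6.32 and 6.47 (0.25, adjusted p = 0.527), all below the signal minimum, so the gene passed it only on arrays outside the comparison. The same held for 3 of the 9 complement genes, C4a included, 5 of the 19 disease-associated microglia genes and 2 of the 23 lysosomal genes.

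Astrocyte genes outside the reactive set had smaller mean differences. Of 11 tested resting astrocyte genes 10 had higher means (median 0.14), 3 of them at an unadjusted p below 0.05, beside 5.15% of all rows. Slc14a1, a urea transporter, read 7.71, 7.71 and 8.01 in Non + Veh and 8.65, 8.49 and 9.01 in Tg + Dox (0.91, adjusted p = 0.427). Slc1a3, a glutamate transporter, read 10.18, 10.22 and 10.36 against 10.53, 10.49 and 10.56 (0.28, adjusted p = 0.465). Both had separate groups, but Non + Dox 2 read 8.51 for Slc14a1, within the Tg + Dox range, and Non + Dox arrays read 10.41 and 10.46 for Slc1a3, between the groups. The metallothionein gene Mt2 read 16.20, 16.18 and 16.37 against 16.59, 16.75 and 16.93 (0.51, adjusted p = 0.465), with Non + Dox at 16.22 and 16.38. Mt1, another metallothionein gene, differed by only 0.08.

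The C1q chains initiate the classical complement pathway. C1qb read 8.16, 8.02 and 8.14 in Non + Veh and 8.80, 9.08 and 9.96 in Tg + Dox (1.17, SE 0.291, adjusted p = 0.465), with Non + Dox at 8.05 and 8.10. C1qc read 6.87, 6.54 and 6.49 against 7.18, 7.38 and 7.65 (0.77, adjusted p = 0.446). Groups of both chains were separate, whereas C1qa overlapped at 7.90 (0.34, adjusted p = 0.653). C4b, the next component of the cascade, read 6.32, 6.13 and 6.26 against 6.91, 6.86 and 7.79 (0.95, adjusted p = 0.465), and C4a differed by 0.38. C4a and C4b are near-identical copies, so their rows may share signal.

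Ctss, a lysosomal protease of microglia, read 9.60, 9.51 and 10.04 in Non + Veh and 10.50, 10.38 and 11.70 in Tg + Dox (1.15, SE 0.333, adjusted p = 0.465). Without Tg + Dox 3 the difference was 0.73. Lyz2, the myeloid lysozyme, read 6.11, 5.75 and 6.24 against 6.53, 6.84 and 7.42 (0.89, adjusted p = 0.527). Its close copy Lyz1 overlapped between groups (0.39, adjusted p = 0.610). The microglial lipid receptor Trem2 read 5.69 at most in Non + Veh against 5.85, 5.99 and 6.31 (0.44, adjusted p = 0.485), all below the signal minimum, and its adaptor Tyrobp overlapped (0.57, adjusted p = 0.649). Apoe, a lipid carrier of glia, differed by 0.33, read 12.53, 12.53 and 12.73 against 12.91, 12.94 and 12.92, and matched the 12.91 of Non + Dox 1. Csf1r, the receptor that maintains microglia, differed by 0.57 and Siglech by 0.28, and all 10 tested homeostatic microglia genes had higher means (median 0.15).

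The array Tg + Dox 3 stood apart in these lists. It was the highest of the 3 Tg + Dox arrays for 16 of 19 disease-associated microglia genes, 7 of 9 complement genes, 20 of 23 lysosomal genes and 5 of 5 reactive astrocyte genes. Array medians of the complement list were 0.32, 0.21 and 0.84 in Tg + Dox, and those of the microglia list 0.13, 0.16 and 0.56. Leaving out Tg + Dox 3 lowered the list medians to 0.26 for complement, 0.11 for disease-associated microglia, 0.10 for lysosomes and 0.21 for reactive astrocytes. The counts at an unadjusted p below 0.05 then became 3 of 9, 1 of 19, 1 of 23 and 1 of 5. In that setting 721 of all 12745 rows were higher at that p. Non + Dox arrays gave complement medians of -0.02 and 0.16, and the feed difference had a list median of 0.05. The genotype difference on doxycycline had medians of 0.54 for complement and 0.37 for disease-associated microglia, and of 0.62 and 0.39 without the libraries labelled Non + Veh 3 and Non + Dox 2. For reactive astrocytes that median was 0.35 with and 0.67 without them.

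**Figure D3:**
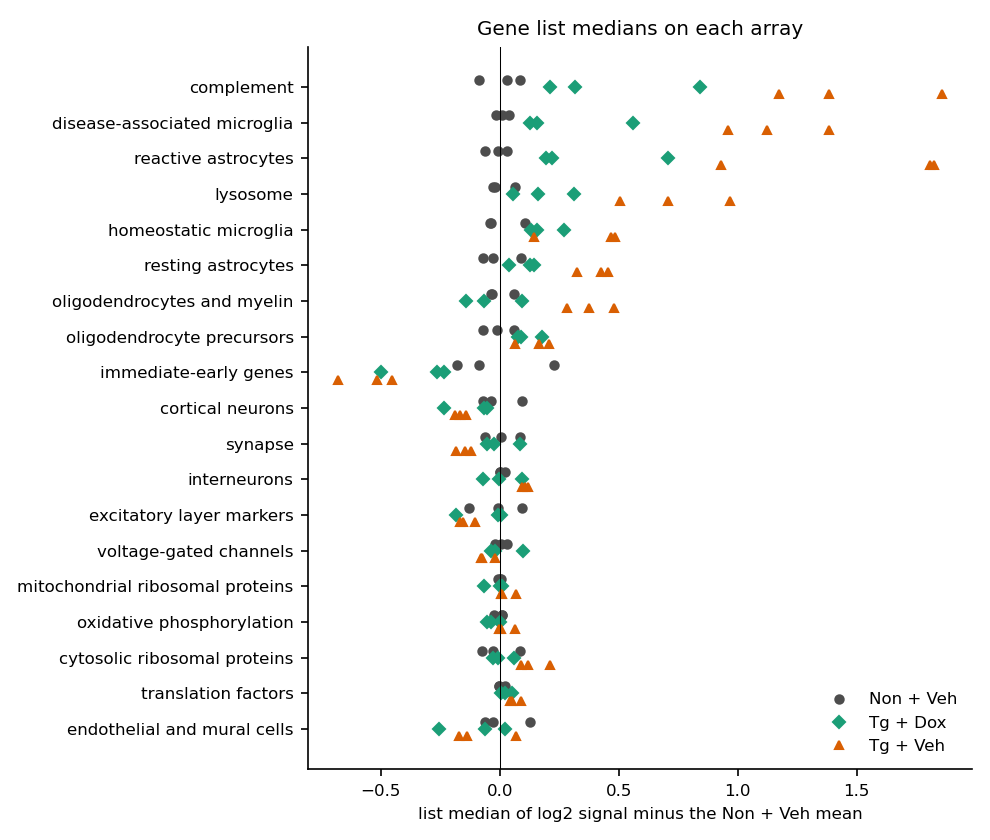
Median over each gene list's tested members of the log2 signal minus the Non + Veh mean (x), 1 point per array of Non + Veh, Tg + Dox and Tg + Veh. Complement medians of Tg + Dox lie at 0.21 to 0.84, above Non + Veh and below Tg + Veh, with Tg + Dox 3 the highest, and the immediate-early list lies at -0.50 to -0.24.

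**Figure D4:**
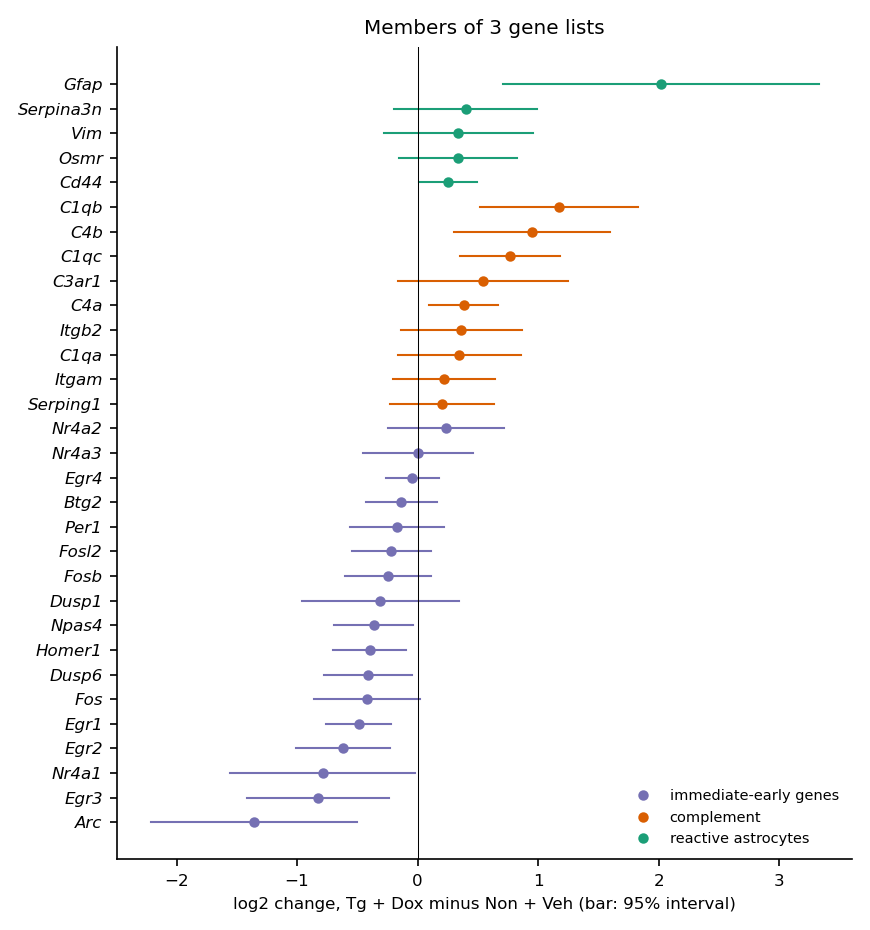
Log2 change of Tg + Dox minus Non + Veh with 95% intervals for every tested member of 3 gene lists. All 14 complement and reactive astrocyte means are above 0, with the Gfap interval at 0.71 to 3.33, and 15 of 17 immediate-early means are below 0.

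Myelin genes had no single direction. Of 15 tested oligodendrocyte and myelin genes 11 had lower means (median -0.06, 1 at an unadjusted p below 0.05, beside 4.07% of all rows), but without Tg + Dox 3 the median was 0.01. For Tg + Veh minus Non + Veh it was 0.40. Mog, a myelin surface glycoprotein, read 9.41, 9.24 and 9.32 in Non + Veh and 9.44, 9.27 and 9.18 in Tg + Dox (-0.03, adjusted p = 0.952). Olig1, a transcription factor of the lineage, read 8.15, 7.91 and 8.23 against 7.63, 7.81 and 7.80 (-0.35, adjusted p = 0.465), with Non + Dox at 7.70 and 7.75.

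The 3 neurofilament subunits, which form the intermediate filaments of axons, all had lower signals on every Tg + Dox array. Nefm read 8.18, 8.12 and 8.33 in Non + Veh and 7.79, 7.73 and 7.81 in Tg + Dox (-0.44, SE 0.0681, adjusted p = 0.227). Nefl read 14.64, 14.60 and 14.51 against 14.33, 14.35 and 14.29 (-0.26, adjusted p = 0.407). Nefh read 9.47, 9.34 and 8.98 against 8.71, 8.77 and 8.73 (-0.53, adjusted p = 0.465). For Nefm and Nefl the Tg + Dox arrays lay below all 8 other arrays, which 126 rows (0.989%) did, while 42 rows (0.33%) had Tg + Dox above all 8. Some of the 126 rows read the same on every array, such as both Rnu5g rows, so they are not all separate measurements. For Nefh, Non + Dox 2 reached 8.74. Feed and genotype parts had the same sign in each, at -0.21 and -0.23 for Nefm, -0.15 and -0.11 for Nefl and -0.33 and -0.19 for Nefh. Without the libraries labelled Non + Veh 3 and Non + Dox 2 they were -0.08 and -0.30, -0.18 and -0.12, and -0.28 and -0.38.

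Other neuronal genes were mixed. Of 10 tested cortical neuron genes, 4 were lower at an unadjusted p below 0.05, beside 4.07% of all rows: the neurofilament genes and Snap25, a vesicle fusion protein (-0.22, adjusted p = 0.527). The 26 tested synapse genes split into 13 higher and 13 lower means with a median of 0.00. Slc17a6, a vesicular glutamate transporter, read 9.41, 9.44 and 8.91 in Non + Veh and 8.72, 8.79 and 8.56 in Tg + Dox (-0.56, adjusted p = 0.502). The median of 15 interneuron genes was 0.00 and that of 12 excitatory layer markers -0.05, with 0 and 1 lower at that p.

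Among 17 voltage-gated channel genes and partners, Fgf14 was the 1 call. Scn4b, a sodium channel beta subunit, read 8.22, 8.03 and 7.75 in Non + Veh and 7.03, 6.92 and 7.18 in Tg + Dox (-0.96, SE 0.182, adjusted p = 0.407). The groups were far apart, yet Non + Dox 2 read 6.97. Feed and genotype parts were -0.66 and -0.29, or -0.42 and -0.67 without the libraries labelled Non + Veh 3 and Non + Dox 2. Scn1a, a pore-forming sodium channel, differed by -0.42, with feed at -0.49 (-0.23 without those libraries), and Cacna1e, a calcium channel, by 0.32, with feed at 0.41.

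Genes of the translation and energy machinery stayed near 0. Of 50 mitochondrial ribosomal protein genes 0 had an unadjusted p below 0.05 (median -0.02, range -0.26 to 0.22). The 19 tested cytosolic ribosomal protein genes also gave 0 (median 0.00), and 24 of the 45 listed had no single-symbol row. Among 27 translation factors 1 was lower at that p (median 0.02, range -0.15 to 0.13), and all 27 had intervals within 1 log2 unit. Of 42 oxidative phosphorylation genes 30 had lower means (median -0.04), 1 of them at that p, beside 4.07% of all rows. It was Atp5h, an ATP synthase subunit, which read 8.94 to 9.01 in Non + Veh and 8.71, 8.73 and 8.78 in Tg + Dox (-0.24, adjusted p = 0.407). Non + Dox arrays read 8.76 and 8.78.

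Inflammatory signalling genes had higher means for 8 of 9 tested (median 0.18, 0 at an unadjusted p below 0.05), and so did all 4 tested interferon and MHC class I genes (median 0.14, 0 at that p). Without Tg + Dox 3 these medians were 0.10 and 0.03. Of 5 tested oligodendrocyte precursor genes 4 had higher means (median 0.11), 2 at that p. Groups did not overlap for 3 of the 5, beside 7.21% of all rows. Without Non + Veh 1, and likewise without Tg + Dox 1, 0 of the 5 were higher at that p. Glucocorticoid-responsive genes had higher means for 10 of 12 (median 0.09), 3 at that p, Mt2 among them, and 1 without Tg + Dox 3. The share of all rows higher at that p was 5.15%, and without Tg + Dox 3 there were 721 of 12745.

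Medians of the remaining lists were 0.00 for 15 circadian clock genes, 0.00 for 13 cholesterol synthesis genes, 0.01 for 12 cyclic nucleotide phosphodiesterases, -0.01 for 8 Atf4 target genes, -0.08 for 14 genes of the unfolded protein response and -0.01 for 18 tau and microtubule-associated genes. Without Tg + Dox 3, 5 of the 15 clock genes were higher at that p and 2 lower, with a median of 0.06. Of all 12745 rows, 721 were higher and 421 lower in that setting. With Tg + Dox 3 kept, 0 of the 15 clock genes were higher at that p and 1 was lower. Among the unfolded protein response genes 2 of 14 were lower at that p, beside 4.07% of all rows, and among the tau and microtubule-associated genes 3 of 18 were higher and 1 lower. None of the members of these 10 lists was called.

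The change can be written exactly as the feed difference in non-transgenic cortex plus the genotype difference on doxycycline, which share the Non + Dox arrays. Both of those arrays were male, against 1 male and 2 females in Non + Veh and in Tg + Dox, so sex differs along with feed and with genotype in these parts. Neither part gave a call (0% of rows each, with 1354 rows at an unadjusted p below 0.05 for feed and 775 for genotype on doxycycline). Of the 20 rows with the smallest p, 10 in each direction, the feed part was the larger in 15 and the genotype part in 5, and without the libraries labelled Non + Veh 3 and Non + Dox 2 it was the larger in 13. The feed part was also the larger in 55.8% of all rows and in 67.1% of rows at an unadjusted p below 0.05. It shares the Non + Veh arrays on which the rows were picked, so these counts are a description only. With 2 Non + Dox arrays these parts are less precise than their sum.

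Several rows with higher means had most of the difference in the feed part. One was Gm5898, a predicted gene, which read 11.42, 11.42 and 11.62 in Non + Veh and 12.02, 12.01 and 11.94 in Tg + Dox (0.50, adjusted p = 0.0963). Non + Dox 2 read 11.92, and Tg + Veh arrays 11.85 to 11.88. Gm5898 was also called higher in Tg + Veh minus Non + Veh (0.37, adjusted p = 0.0200). Snord104, a small nucleolar RNA, read 12.42, 12.70 and 12.59 against 13.83, 13.97 and 13.81 (1.30, SE 0.180, adjusted p = 0.128), with 13.50 and 13.77 in Non + Dox. Its Tg + Veh arrays, without doxycycline, read 13.25, 12.91 and 13.72, also above every Non + Veh array. Pde9a, a cGMP phosphodiesterase, read 7.18, 7.37 and 7.37 against 7.80, 7.65 and 7.60 (0.37, feed part 0.42). Groups of all 3 were separate, and the feed parts of Gm5898 and Snord104 were 0.48 and 1.07.

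Paqr8, a membrane progesterone receptor gene, read 9.30, 8.97 and 8.71 in Non + Veh and 9.79, 9.60 and 9.70 in Tg + Dox (0.70, adjusted p = 0.407), above all 8 other arrays, with parts of 0.38 for feed and 0.33 for genotype, or 0.10 and 0.46 without the libraries labelled Non + Veh 3 and Non + Dox 2. Scrg1 read 9.52, 9.79 and 9.70 against 10.09, 10.43 and 10.27 (0.59), and 11.10 to 11.43 in Tg + Veh. Sdc4, a heparan sulphate proteoglycan, differed by 0.42 and likewise stood higher in Tg + Veh (0.89). The remaining rows of the 10 were Lix1l (0.35), Gm6161 (0.38), Sat2 (0.27) and Itprid2 (0.26), each with an adjusted p of 0.407. For Tg + Veh minus Non + Veh, Sat2 (0.30) and Itprid2 (0.35) were called higher, whereas Lix1l (0.22) and Gm6161 (0.20) were not called.

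Among the lower rows, Mrto4-ps2, a pseudogene by its name, had its difference in the genotype part on doxycycline (-0.34), with 0.02 for feed. It read 8.25, 8.37 and 8.29 in Non + Veh and 7.96, 7.99 and 7.99 in Tg + Dox (-0.32, adjusted p = 0.0963), but 8.22 to 8.29 in Tg + Veh. Cdr1 read 17.69, 17.53 and 17.58 against 17.05, 17.05 and 17.17 (-0.51, adjusted p = 0.0963), with parts of -0.20 and -0.31. Gm16570 (-0.51) and 2510009E07Rik (-0.39) had adjusted p of 0.142 and 0.261. In these 4 rows the Tg + Dox arrays were below all 8 others, Tg + Veh included. 4931417E11Rik and Ndufa11b each differed by -0.33.

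**Figure D5:**
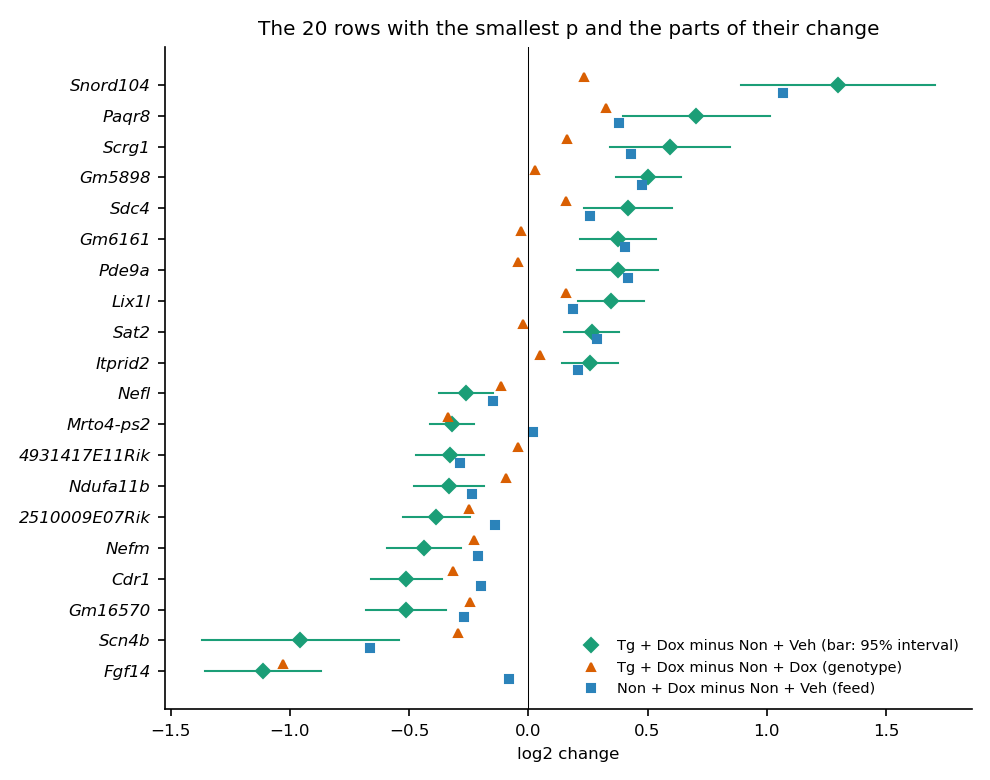
Log2 change of Tg + Dox minus Non + Veh (diamonds, 95% intervals) for the 20 rows with the smallest p, with the genotype difference on doxycycline (triangles) and the feed difference (squares) that sum to it. For Fgf14 and Mrto4-ps2 the genotype part lies near the whole change, and for Snord104, Gm5898 and Pde9a the feed part does.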

How the data were processed

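Total RNA from frozen mouse cortex was hybridised to Clariom D arrays, a chip that reads transcripts by probe brightness. The authors summarised probe intensities with the robust multi-array algorithm (RMA) and deposited log2 signals. Scale was thus shared across arrays before deposit, and no count depth exists, so the number of arrays limits precision. The genome build was not given in the sources used here.

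Rows with 1 symbol and a signal above 6.76 on at least 1 of 11 arrays were tested with limma 3.58.1 (R 4.3.3), using 4 group means and Benjamini-Hochberg adjustment over 12745 rows. Levels of different rows were not compared. The methods name a two-way ANOVA, so the contrast was also run without moderation. Named genes were the 10 rows of smallest p in each direction, a fixed set and members of gene lists. Members and lists were chosen with earlier results of these data known. Whether arrays hold separate mice is not given, so p-values measure the spread between samples, which may be technical. Scripts were tested on simulated data.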

Additional observations from a re-analysis of the deposited data

How the results depend on the processing

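Without the signal minimum, 1177 rows were higher and 1019 lower at an unadjusted p below 0.05, and 0 were called lower. The count of rows called lower was also 0 in place of 1 with only the 6 arrays compared, with quantile normalization repeated, with sex as a term and without moderation of the contrast. Leaving out 1 array gave 0 to 1 rows called higher, 0 to 1 called lower, 376 to 737 rows higher and 320 to 596 lower at that p. The lower call without Non + Veh 1 was Gm26337, which read 14.30 on that array, 17.25 and 17.47 on the other Non + Veh arrays and 14.15 to 14.38 in Tg + Dox. Gm5898 was the higher call without Non + Veh 3 and Snord104 without Tg + Veh 3. Without the libraries labelled Non + Veh 3 and Non + Dox 2, chosen after seeing the data, 2 rows were called higher and 7 lower. Centring arrays on their medians shifted changes by -0.01 and moved the share of higher rows at that p from 55.9% to 44.4%. Replicate numbers did not pair the samples (correlations of deviations -0.101, -0.0856 and -0.102), and with the number as a block 0 rows were called lower, with Fgf14 at -1.11 and adjusted p = 0.211. With 1 array left out, changes spanned -0.0031 (without Tg + Dox 3) to 0.0904 for Mapt, -0.0995 to 0.0306 for Mog, which was above 0 without Tg + Dox 3 or Non + Veh 1, and -2.04 to 0.19 (without Non + Veh 2) for Tmem181a. Apart from the removal of arrays or rows, the cause of these moves was not tested. The unmoderated contrast gave 190 rows (1.49%) at the methods' threshold of 0.01 and 0 after adjustment.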
